A study of Mus musculus with 34 samples.

Results

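The choroid plexus is the secretory tissue of the brain ventricles, and 10 genes that mark it were followed through 34 RNA-seq libraries of mouse hippocampus: Ttr, Kl, Folr1, Kcnj13, Aqp1, Cldn2, Slc4a5, Sostdc1, Otx2 and F5. They were taken by gene name from the deposited tables of 55385 genes, and were chosen with earlier results of these data known. All 10 were among the 17518 genes that passed the filter on low counts. Of the 34 mice, all 6 months old, 15 received vehicle (0.5% methylcellulose, here called sham) and 19 received tofacitinib, an inhibitor of Janus kinases, at 15 mg/kg by gavage every day for a month. The sham groups held 5 wild-type mice (WT, C57BL/6J), 3 Dp16 mice, whose extra copy of a chromosome 16 segment models Down syndrome, 4 5xFAD mice, in which the neuronal Thy1 promoter drives human transgenes bearing familial Alzheimer mutations, and 3 5xFAD-Dp16 mice with both changes. Tofacitinib was given to 5 mice of each of WT, Dp16 and 5xFAD and to 4 that were 5xFAD-Dp16. In all there were 16 females and 18 males. The design text names 1 further tofacitinib 5xFAD mouse and 1 further sham 5xFAD-Dp16 mouse, which were not analysed here.

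The choroid plexus is a folded sheet of cuboidal epithelium over leaky capillaries that makes cerebrospinal fluid. Its cells pump ions and water across their apical face, bind and pass on vitamins and hormones, and secrete transthyretin in large amounts. The tissue hangs in the ventricle along the edge of the hippocampus and is not part of the hippocampal formation, so that its genes report on the tissue that entered a sample as well as on the cells that express them. In bulk RNA, more epithelial cells and more RNA per cell cannot be told apart.

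Otx2, a homeodomain transcription factor that the choroid plexus needs to form and persist, is itself among the 10 genes. Homeodomain proteins of its class bind TAATC-type letters, so the 250 bases before annotated starts were searched for TAATC, for its longer form TAATCC, which contains it, and for the TATA-box letters TATAAA, on both strands (RefSeq, GRCm38.p6). Windows of 7 of the 10 genes were searched, 10 windows in all, because Otx2 has several starts. The chromosome of Ttr was left out of this search, though not of the windows counted over all genes. TAATC stood in 2 of the 10 windows, against 19.8% of all 32851 windows of this length, TAATCC in 1 (6.25% of all) and TATAAA in 4 (12.4% of all). The 3 windows shown are those with TAATC and those with TATAAA closest to the start, since these genes moved together in the libraries. Capitals mark the matches, and GATTA is TAATC read on the other strand. In the Otx2 window the g just before the capitals extends the match to TAATCC. The Otx2 window is chr14:48665110-48665359, minus strand, with its match 210 bases before the start. The Kcnj13 window is chr1:87394730-87394979, minus strand, with matches 226 and 29 bases before the start. The Cldn2 window is chrX:139800558-139800807, plus strand, with its match 35 bases before the start.
Otx2: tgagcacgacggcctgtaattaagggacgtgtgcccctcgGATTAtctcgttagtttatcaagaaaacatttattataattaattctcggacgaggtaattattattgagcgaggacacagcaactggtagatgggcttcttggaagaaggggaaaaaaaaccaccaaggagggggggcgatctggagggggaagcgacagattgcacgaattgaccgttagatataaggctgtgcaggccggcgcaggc
Kcnj13: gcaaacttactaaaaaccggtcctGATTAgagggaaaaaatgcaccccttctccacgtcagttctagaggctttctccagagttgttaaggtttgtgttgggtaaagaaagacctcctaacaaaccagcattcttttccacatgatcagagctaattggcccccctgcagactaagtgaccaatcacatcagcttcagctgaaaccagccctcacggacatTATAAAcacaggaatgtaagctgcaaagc
Cldn2: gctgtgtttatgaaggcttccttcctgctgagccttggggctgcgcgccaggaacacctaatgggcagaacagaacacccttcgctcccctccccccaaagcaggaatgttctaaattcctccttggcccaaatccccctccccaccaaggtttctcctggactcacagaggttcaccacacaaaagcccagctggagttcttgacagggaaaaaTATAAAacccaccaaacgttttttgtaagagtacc

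A match in these windows is a description of letters and not of a bound site. The Aqp1, F5 and Kl windows held none of the 3 motifs.

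Library totals ran from 14.9 to 21.1 M counts (median 17.8 M), so 3 counts, the least taken as above 0 with any assurance, were worth 0.143 to 0.206 counts per M (CPM). This covers counting error only. In 3 libraries the 10 hippocampal neuron markers were low: their mean log2 CPM was 1.85 in WT tofacitinib library 3, 2.39 in 5xFAD-Dp16 sham library 4 and 2.92 in library 2 of the 5xFAD tofacitinib mice, against 4.82 to 5.74 in the other 31. Those 3 libraries, and 5xFAD-Dp16 tofacitinib library 1, also had raised thalamic or striatal markers. All 4 lay above the median in choroid plexus RNA. Results that rest on them are given with and without them, except those within the mice that carry the 5xFAD transgenes.

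Transthyretin RNA was the most variable of the 10. Ttr encodes the carrier of thyroxine and retinol-binding protein in cerebrospinal fluid. In WT sham mice Ttr was 23.8, 988, 3665, 105 and 8.07 CPM in libraries 1 to 5. In WT tofacitinib mice it was 20.4, 9.555, 945, 5340 and 754 CPM. Each of these groups thus spanned the low and the high end of the series.

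In Dp16 sham mice Ttr was 2466, 2089 and 812 CPM. No library of this group was low. In Dp16 tofacitinib mice it was 326, 4683, 16.3, 1305 and 27.6 CPM, so 3 of those 5 lay below every Dp16 sham library and the highest lay above all of them.

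In 5xFAD sham mice Ttr was 4324, 11.0, 15.2 and 4009 CPM. In 5xFAD tofacitinib mice, whose libraries are numbered 1, 2, 4, 5 and 6, it was 3.02, 4412, 29.4, 26.7 and 3601 CPM. In both groups the libraries were either at 3601 CPM or more or at 29.4 CPM or less. In 5xFAD-Dp16 sham mice (libraries 1, 2 and 4) it was 35.4, 40.4 and 2032 CPM, and in 5xFAD-Dp16 tofacitinib mice 2335, 9.28, 853 and 11.8 CPM.

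The extremes, 3.02 and 5340 CPM, differed 1767-fold, from 54 to 106655 counts. The SD of log2 Ttr within groups was 3.90, the third highest of the 17518 genes, whose median was 0.27. Every group except Dp16 sham held a library at 40.4 CPM or less and a library at 2032 CPM or more, and the ranges of all 8 groups overlapped.

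**Figure D1:**
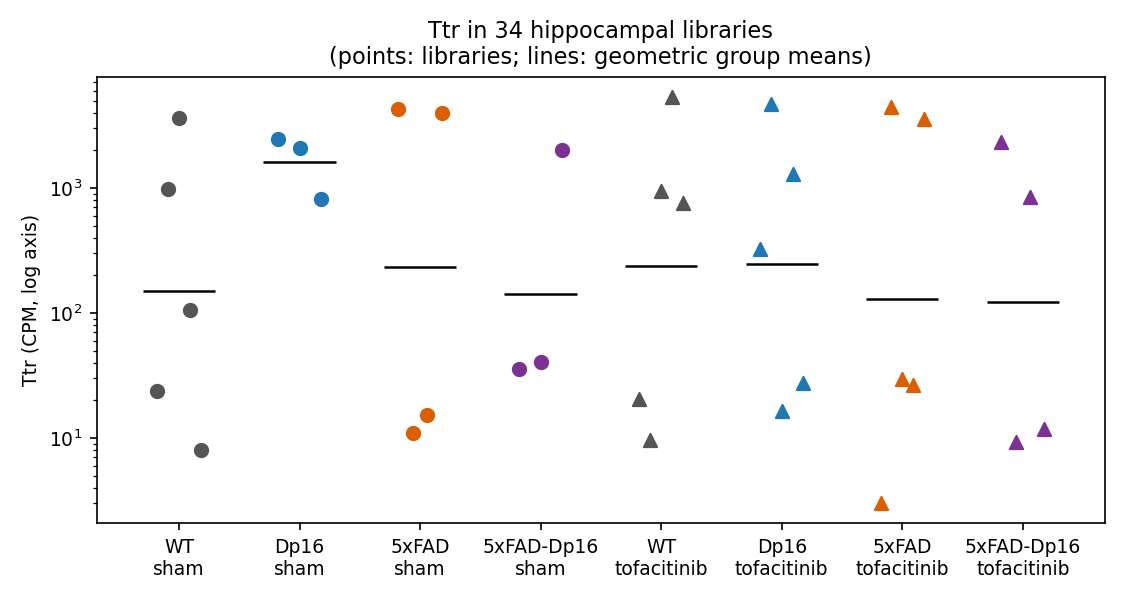
Ttr in CPM (log axis) in each of the 34 libraries by group. Points are libraries and lines are geometric group means; circles are sham and triangles tofacitinib. The 3 Dp16 sham libraries sit between 812 and 2466 CPM, and each other group runs from 35.4 CPM or less to 2032 CPM or more.

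The other secreted proteins and the co-receptor moved over narrower ranges. Sostdc1, a secreted antagonist of BMP and Wnt signals (chromosome 12, 36314139 to 36318452, GRCm38), ran from 1.29 to 41.1 CPM, 31.8-fold. F5, coagulation factor V (chromosome 1, 164151838 to 164220277), ran from 0.207 to 51.5 CPM, 249-fold. Kl, klotho, the co-receptor of fibroblast growth factor 23, which neurons also express (chromosome 5, 150952607 to 150993817), ran from 11.6 to 177 CPM, 15.3-fold. Kl had the smallest within-group SD of the 10, 1.38 on the log2 scale, which ranked 147 of 17518. Its lowest count was 191, in WT sham library 5, and no other of the 10 genes had a minimum as high.

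The transport genes were near or at 0 in the low libraries. Folr1, the folate receptor that carries folate into the ventricle (chromosome 7, 101858331 to 101870788), had a median of 3.09 CPM, was at 0 in 1 library and reached 37.4 CPM, at least 216-fold above 3 counts in that lowest library. Kcnj13, the apical potassium channel Kir7.1 (chromosome 1, 87386363 to 87394729), was at 0 in 3 libraries and reached 38.8 CPM. Slc4a5, a sodium bicarbonate cotransporter (chromosome 6, 83219828 to 83304945), was at 0 in 3 libraries, had 3 counts or fewer in 8, and reached 39.7 CPM. Aqp1, the apical water channel (chromosome 6, 55336432 to 55348555), was at 0 in 2 libraries and reached 28.5 CPM. In such libraries these RNAs were not detectable at this depth, which does not show that they were absent.

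Cldn2, the claudin that makes the junctions of this epithelium leaky to cations (chromosome X, 139800828 to 139811386), ran from 1 count (0.052 CPM) to 25.8 CPM. Otx2 (chromosome 14, 48657677 to 48673819) ran from 0.313 to 20.5 CPM, 65.5-fold. Per gene length, on the deposited RPKM scale, mean levels over the 34 libraries were 1142 for Ttr, 9.85 for Kl, 7.58 for Kcnj13, 7.37 for Sostdc1, 6.18 for Folr1, 2.85 for Aqp1, 2.47 for Otx2, 2.19 for Cldn2, 1.70 for Slc4a5 and 1.65 for F5. Ttr lies at 20665280 to 20674321 on its chromosome. Ttr stood far above the rest, and the means of neighbours in this order, such as Kcnj13 and Sostdc1, differed by less than the spread between libraries.

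The fullest and the emptiest libraries show the size of the change. In 5xFAD tofacitinib library 2, Ttr was 4412, Kl 156, Folr1 36.2, Kcnj13 34.9, Aqp1 27.6, Cldn2 22.5, Slc4a5 39.7, Sostdc1 40.6, Otx2 20.0 and F5 51.5 CPM. In 5xFAD sham library 2, Ttr was 11.0, Kl 17.4, Folr1 0.621, Cldn2 0.052, Slc4a5 0.155, Sostdc1 1.29, Otx2 0.466 and F5 0.207 CPM, with Kcnj13 and Aqp1 at 0. The second of these had normal hippocampal markers (5.72) and the first low ones, and among libraries with normal markers 5xFAD sham library 1 was nearly as full, with Ttr at 4324 and F5 at 51.4 CPM.

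The mean log2 CPM of the 10 genes, with a prior count of 2 added, is called the choroid plexus level below. It ran from -0.57 to 5.97 with a median of 2.74. Group means were 2.13 ± 2.26 (SD, n = 5) in WT, 4.52 ± 1.01 (n = 3) in Dp16, 2.70 ± 3.62 (n = 4) in 5xFAD and 2.42 ± 2.27 (n = 3) in 5xFAD-Dp16 sham mice. With tofacitinib they were 2.51 ± 2.22 (n = 5), 2.76 ± 2.28 (n = 5), 2.43 ± 2.97 (n = 5) and 2.18 ± 2.34 (n = 4) in the same order. Between-group differences made up 7.48% of the variance of the level, and the pooled SD within groups was 2.51. The widest gap between neighbouring libraries was 0.86, from 1.54 to 2.40, with 16 libraries below it and 18 above.

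**Figure D2:**
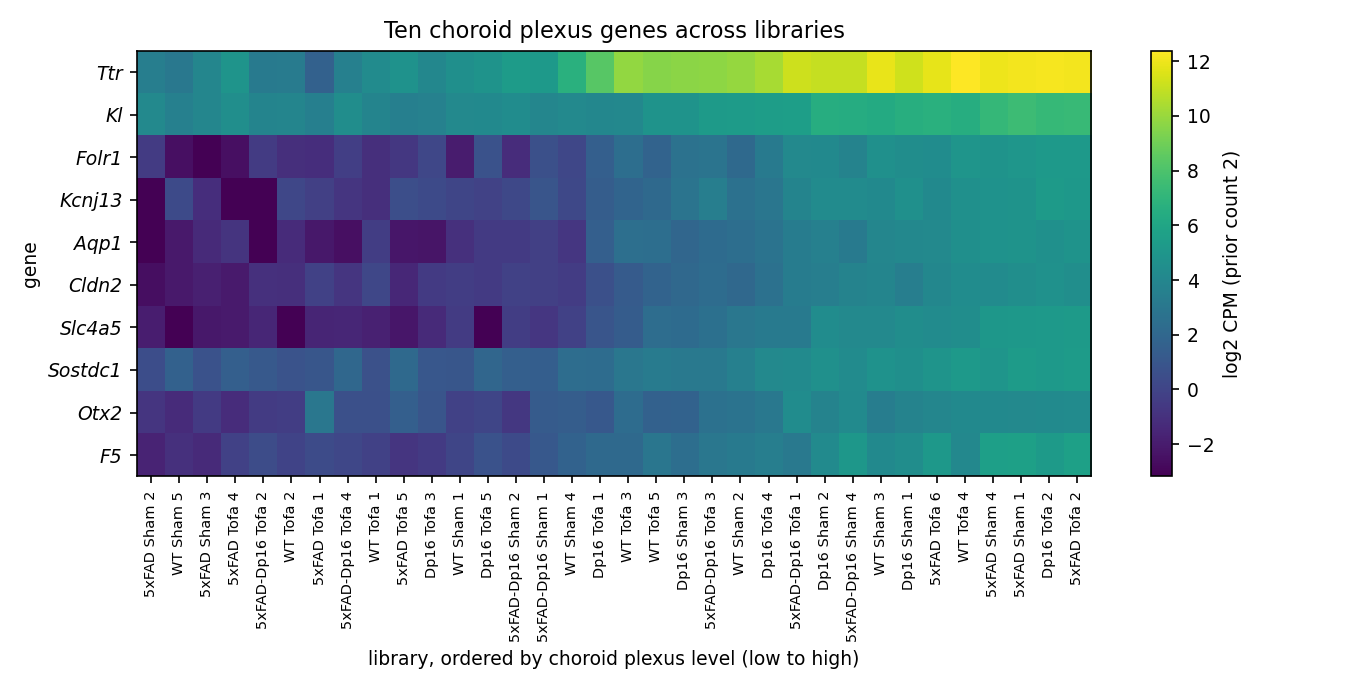
Log2 CPM (prior count 2, colour) of the 10 genes (rows) in 34 libraries (columns), ordered from the lowest choroid plexus level to the highest, -0.57 to 5.97. All 10 rows brighten to the right, and Kl starts from the highest minimum count. In 5xFAD tofacitinib library 1, Otx2 is above Ttr and below Kl.

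The 10 genes rose and fell together across the libraries. For the 45 pairs, Pearson's r of log2 CPM over 34 libraries was 0.824 to 0.976 (median 0.930) and Spearman's rho 0.747 to 0.959 (median 0.907). The permutation p of r, adjusted over the 45 pairs, was 1e-05 for each, the smallest that the permutations can give, and that of rho was at most 2e-05. Without the 2 libraries farthest from the median, r was 0.806 to 0.978, and for deviations from group means 0.837 to 0.979. Kl and Otx2 had the lowest median r with the others, 0.898 each, and Cldn2 the highest, 0.947. All values of a library share its depth, scaling and dissection.

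Over the 18 libraries above the widest gap, r of the pairs was 0.831 to 0.993 (median 0.937). Over the 16 below it, where several of the genes had 3 counts or fewer, r was -0.433 to 0.728 (median 0.318). Otx2 and Ttr had an r of 0.918 above the gap and -0.049 below it. The split was made after the values were seen and on the mean of the same 10 genes, which narrows their range on each side, so these r are a description and the sides are not compared.

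The ratios between the genes were not fixed. In the 17 libraries with at least 500 CPM of Ttr, a limit also set after the values were seen, F5 per 1000 Ttr (both in CPM) was lowest, at 3.11, in WT tofacitinib library 4 and highest, at 16.2, in 5xFAD-Dp16 sham library 4. The 4 5xFAD libraries in this range had 11.9 and 12.3 (sham) and 11.7 and 9.78 (tofacitinib). The WT libraries had 9.61 and 5.08 (sham) and 4.50, 3.11 and 10.1 (tofacitinib), so the genotypes overlapped. Kl per 1000 Ttr ran from 17.2 to 46.7 and Slc4a5 from 2.61 upwards, and both were lowest in WT tofacitinib libraries. Folr1 per 1000 Ttr ran from 4.44 to 8.88 and Sostdc1 from 6.96 to 13.7.

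Otx2 departed from the rest in 3 libraries. In 5xFAD tofacitinib library 1, Otx2 was 7.84 CPM (140 counts) while Ttr was 3.02 CPM, the lowest of all. In 5xFAD-Dp16 sham library 4 and 5xFAD-Dp16 tofacitinib library 1, Otx2 per 1000 Ttr was 9.34 and 8.78, against 2.94 to 7.13 in the other 15 libraries with at least 500 CPM of Ttr. Tcf7l2, a thalamic marker, was 30.8, 230 and 58.2 CPM in these 3 libraries, and 206 CPM in 5xFAD tofacitinib library 2, where the Otx2 ratio was 4.53. In the other 30 libraries it was 5.65 to 14.8 CPM. The part of thalamic tissue in the Otx2 values was not tested.

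**Figure D3:**
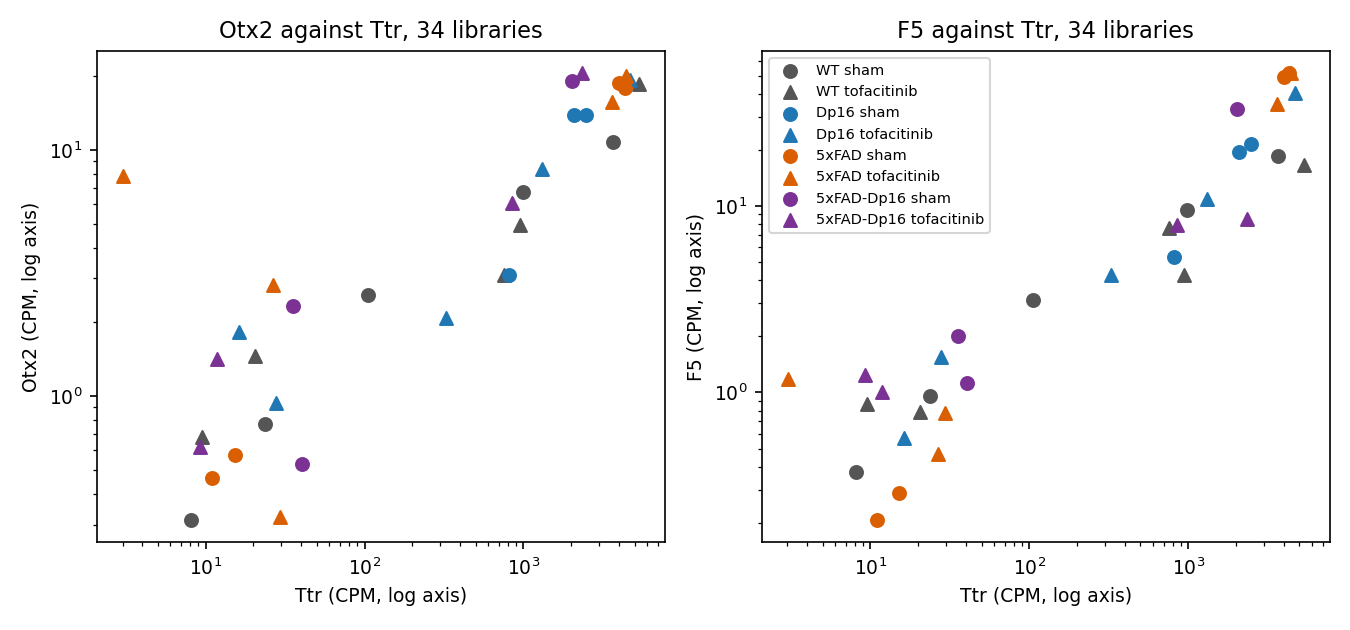
Otx2 (left) and F5 (right) against Ttr in CPM, both axes logarithmic, 1 point per library, coloured by genotype with circles for sham and triangles for tofacitinib. Otx2 at 7.84 CPM stands alone at the lowest Ttr, 3.02 CPM, and F5 at a given high Ttr spreads from 16.6 to 51.5 CPM.

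Other genes of the choroid plexus followed the 10. A list of 34 names of further choroid plexus genes was compiled for this purpose. Of these names, 33 were matched in the files, and their genes passed the filter. The level of the 10 genes was entered as a term beside group and sex. All 33 rose with it (edgeR, adjusted p over the 17518 genes tested, the 10 included), with a median slope of 0.65 log2 units per unit of the level. Of the 17508 genes other than the 10, 1073 (6.13%) were called, 813 rising and 260 falling, and 3869 had an unadjusted p under 0.05. The 6 of the list with the highest mean RPKM were Enpp2, Igfbp2, Cab39l, Ecrg4, Clic6 and Ace. Enpp2, autotaxin, the enzyme that makes lysophosphatidic acid, ran from 129 to 1887 CPM with r = 0.976 to the level over 34 libraries. Oligodendrocytes also make Enpp2, and its lowest library still had 129 CPM. Clic6, a chloride channel protein, ran from 0.563 to 159 CPM (r = 0.967), Ecrg4, a secreted peptide precursor, from 0.362 to 40.4 CPM (r = 0.971), and Ace, which makes angiotensin II, from 9.66 to 139 CPM (r = 0.944). Igfbp2, a binding protein of insulin-like growth factors, ran from 21.6 to 159 CPM (r = 0.905), and Cab39l from 25.8 to 77.1 CPM (r = 0.951). Slc22a8, an organic anion transporter that vessels also carry, had the lowest r of the list, 0.454.

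Outside all marker lists, 14 of 14341 genes with a mean of at least 1 CPM had an r over 0.9 with the level and 71 had an r over 0.8, and none was below -0.8. The closest were Wfdc2 (r = 0.955 over 34 libraries), Prr32 (0.953), Cox8b (0.930), Drc7 (0.923), Mdfic (0.919), Cdh3 (0.917), Slc31a1 (0.914), Sema3b (0.909), Pcolce2 (0.905) and Slc4a2 (0.904), and 2 unnamed gene models were also among the first 12. Wfdc2, a secreted protein with a protease inhibitor fold, ran from 0 to 8.54 CPM, and Slc4a2, an anion exchanger, from 22.5 to 103 CPM.

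Of the lists for neighbouring tissues, part of the ependymal list rose with the choroid plexus genes, and the meningeal, vessel and blood lists were not shown to. Ependymal cells are the ciliated lining of the ventricle. With the level as a term, 8 of the 16 genes listed for ependymal cells rose and none fell. Among them, Foxj1, the master factor of motile cilia, had a slope of 0.19 (edgeR adjusted p = 0.000121). Rsph1 had 0.22 (2.21e-05) and Pifo 0.41 (0.00037). Those not called included Tmem212 (0.22, 0.225), Ccdc153 (0.18, 0.261), Rarres2 (0.09, 0.165) and Enkur (-7e-04, 0.995). Which cells gave these RNAs was not tested. Foxj1 was 4.50 to 27.5 CPM and at 0 in no library. None of 12 leptomeningeal, 8 endothelial, 5 blood and 10 hippocampal neuron genes was called, and 3 of 10 thalamic and 2 of 8 striatal genes rose. Without the 3 libraries low in hippocampal markers, 33 of 33 further choroid plexus genes, 9 ependymal genes, 0 thalamic genes and 1 striatal gene rose.

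The mean log2 CPM of the ependymal list ran from -0.25 to 1.69 in sham WT mice and from 0.17 to 2.37 in treated ones. Dp16 mice had 1.75 to 2.28 (sham) and 1.37 to 1.99 (tofacitinib). For 5xFAD the ranges were 0.33 to 2.29 and -0.13 to 2.09, and for 5xFAD-Dp16 they were 0.71 to 2.02 and 1.27 to 2.07, in the same order. Its r with Ttr over 34 libraries was 0.633 (rho 0.713), with a permutation p of 7e-05 (0.00035 adjusted over the 10 relations computed with Ttr), and 0.563 without the 2 farthest libraries. With Ttr, the 33 further choroid plexus genes had an r of 0.958 (rho 0.934, permutation p = 1e-05), the leptomeningeal list 0.227 (adjusted permutation p = 0.243) and the library total -0.067 (0.783).

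No comparison between groups called any of the 10 genes. The sham genotype comparisons share the WT sham mice. Fitted folds compare group means of counts, which weigh the fullest libraries more than the choroid plexus level, a mean of log2 values, does. The order of groups can thus differ between the measures. The mean level was 4.52 in Dp16, 2.70 in 5xFAD, 2.42 in 5xFAD-Dp16 and 2.13 in WT sham mice. In Dp16 against WT sham mice all 10 fitted log2 fold changes were above 0, with a median of 1.22, against 0.01 over all genes tested, and 0 of 10 were called where 0.308% of all genes were. Ttr had a log2 fold change of 1.01 (SE 2.41, adjusted p = 0.976), and Kcnj13 the highest of the 10, 1.60 (SE 1.70, adjusted p = 0.914). In 5xFAD against WT sham mice the median was 1.35, with 10 of 10 above 0 and 0 called (0.445% of all genes). F5 was the highest there, 1.96 (SE 1.45, adjusted p = 1). Both medians rest in part on WT sham library 3: without it they were 2.65 and 2.98. Without 5xFAD sham library 1 or 4 the second was 0.64 or 0.69.

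In 5xFAD-Dp16 against WT sham mice the median was 0.26 with 6 of 10 above 0 and 0 called (0.959% of all genes). Against 5xFAD sham mice it was -1.12 with 0 called (0.268%), and against Dp16 sham mice -1.14 with 0 called (0%). The sham interaction of 5xFAD and Dp16, the fold of 5xFAD on Dp16 less that on WT, had the largest median, -2.36, with 10 of 10 below 0 and 0 called (0%), and Aqp1 had -3.17 (SE 2.71, adjusted p = 0.888). The 5xFAD-Dp16 sham values rest on library 4: without it, the median against WT was -2.53, against 5xFAD -4.11 and in the interaction -5.04.

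Under tofacitinib the medians against WT were 0.31 for Dp16 (0 called, 0.268% of all genes), 0.57 for 5xFAD (0 called, 0.32%) and -0.42 for 5xFAD-Dp16 mice (0 called, 0.537%). The median of 5xFAD-Dp16 was -0.98 against 5xFAD (0 called, 0.217%) and -0.69 against Dp16 (0 called, 0.0285%). No difference between tofacitinib and sham passed the test for these genes. Against sham, WT mice had a median of 0.39 (0 called, 0% of all genes), Dp16 mice -0.58 (0 called, 0.00571%), 5xFAD mice -0.40 (0 called, 0%) and 5xFAD-Dp16 mice -0.20 (0 called, 0%). In WT, 5xFAD and 5xFAD-Dp16 mice the direction depended on single libraries. The median in WT was -1.07 without WT tofacitinib library 4 and 1.83 without WT sham library 3. That in 5xFAD was 0.44 without 5xFAD sham library 1, and that in 5xFAD-Dp16 was 2.49 without sham library 4. In Dp16 it was -2.26 without tofacitinib library 2, and it stayed at -0.28 or below whichever library was left out. Over the 4 genotypes it was -0.14 (0 called, 0%), and Ttr had -0.01 (SE 1.11, adjusted p = 0.999). The responses of Dp16, 5xFAD and 5xFAD-Dp16 mice less that of WT had medians of -0.97, -0.68 and -0.62 (0 called, 0% each). Between females and males the median was 0.06 (0 called, 0.0628%).

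**Figure D4:**
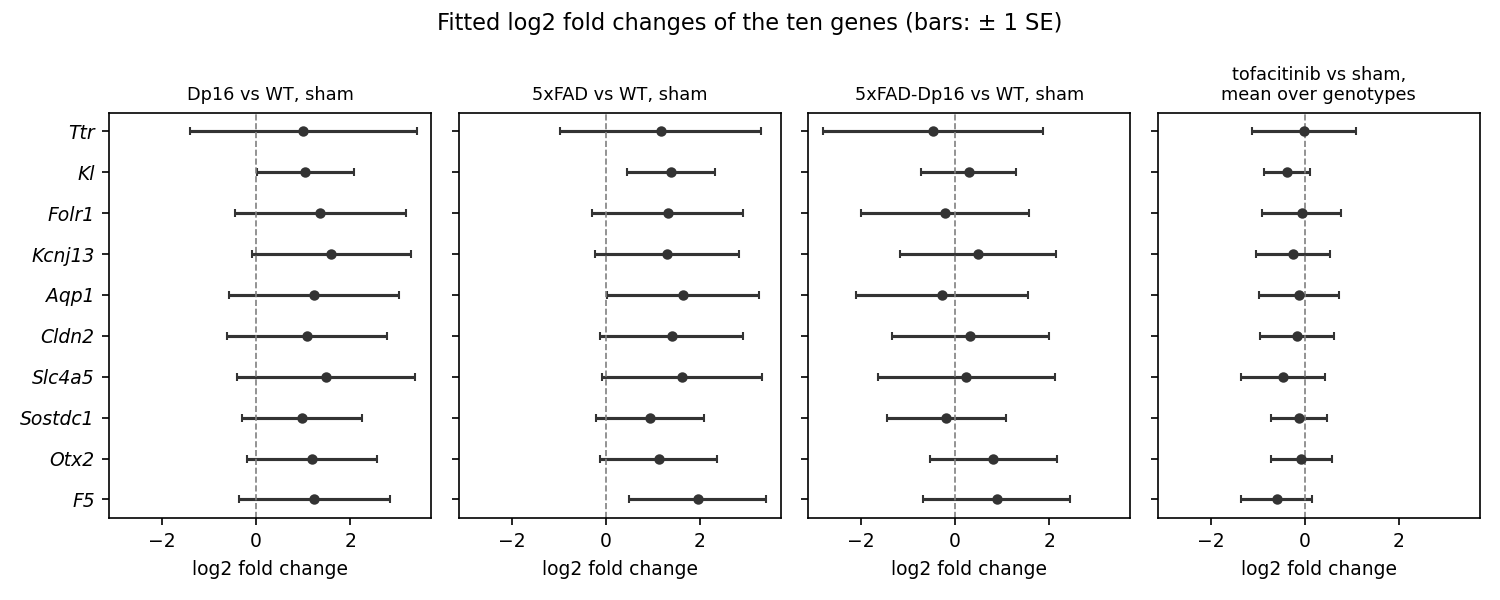
Fitted log2 fold changes (edgeR, x axis) of the 10 genes (rows) in 4 comparisons, with bars of 1 SE on each side. The 10 genes lie to the right of 0 in the first 2 panels, with medians of 1.22 and 1.35, and none was called; Ttr has an SE of 1.11 to 2.41.

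In the 20 comparisons 0 of the 10 genes had an unadjusted p under 0.05, the smallest adjusted p was 0.736 (edgeR), and DESeq2 called 0 in each. In 10 of the comparisons edgeR called 0 or 1 of all genes. In these, 329 to 1354 genes had an unadjusted p under 0.05 and DESeq2 called 0 to 16. Intervals were wide: an SE of 2.41 for Ttr is on the log2 scale, so differences of that size between groups were not detectable with these animals. The call depended on the filter. With no filter on low counts (31281 genes), edgeR called 10 of the 10 in Dp16 and in 5xFAD against WT sham mice and in the interaction, at medians of 1.21, 1.34 and -2.35. In that fit the quasi-dispersion used for Ttr was 0.634, against 156 with the filter, and those of the other 9 were 0.594 to 0.702 against 21.6 to 46.5. The median of all genes with the filter was 0.644. The prior degrees of freedom of the 10 genes were infinite with no filter, against 0.246 to 0.518 with it. With no filter the values used were thus shared across genes, and the calls did not weigh each gene's own spread between libraries.

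The level was next entered as a term in the same comparisons, to see how the calls among the 17508 other genes changed. In Dp16 against WT sham mice 54 genes were called without the term and 44 with it, 42 of them in both. Of the 12 lost, those with the largest fold changes were Rida (0.82 without the term, adjusted p = 0.0414; 0.84 with it, 0.063), N6amt1 (0.72 and 0.70, adjusted p = 0.0448 and 0.0855), Pelo (-0.65 in both, 0.0396 and 0.0694) and Cryzl1 (0.65 and 0.64, 0.0337 and 0.063). N6amt1 and Cryzl1 lie on chromosome 16. Their fold changes moved by at most 0.02 on the log2 scale, and none of the 4 had a called slope on the level, the smallest adjusted p of these slopes being 0.806. Cryzl1 was 48.6 ± 6.34 CPM (SD, n = 5) in WT and 75.0 ± 11.2 CPM (n = 3) in Dp16 sham mice.

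In 5xFAD against WT sham mice 78 genes were called without the term and 100 with it, and 78 of 78 were kept. In 5xFAD-Dp16 against WT sham mice 168 were called without and 206 with it, 164 in both. The 4 lost were Gata3, BC035947, Klhl1 and Ppip5k2. Without and with the term their log2 fold changes were 7.03 and 5.88 (adjusted p with it 0.129), 3.56 and 3.10 (0.0699), 3.22 and 2.86 (0.068), and 0.90 and 0.87 (0.0549), and none had a called slope on the level. Gata3, a transcription factor, was 0 to 27.2 CPM in the 3 5xFAD-Dp16 sham libraries and 0 to 0.274 CPM in WT, and its log2 fold change of 7.03 (adjusted p = 0.0478) was -1.55 (adjusted p = 0.98) without library 4. Without the 3 libraries low in hippocampal markers none of the 4 was called, their adjusted p (edgeR) being 0.722 to 0.905. In 5xFAD-Dp16 against 5xFAD sham mice the count went from 47 to 69 genes with 47 kept.

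With tofacitinib the counts without and with the term were 47 and 53 for Dp16, 56 and 66 for 5xFAD and 94 and 112 for 5xFAD-Dp16 mice against WT. They were 38 and 40 for 5xFAD-Dp16 against 5xFAD and 5 and 9 against Dp16. Tofacitinib against sham over the 4 genotypes gave 0 genes without and with the term. Among the genes called without the term, those that also moved with the level numbered 1 for Dp16, 18 for 5xFAD and 7 for 5xFAD-Dp16 against WT sham mice, and none of these was lost.

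Of the 5 homeostatic microglial genes listed, 4 fell as the level rose over the 34 libraries, 1 without the 3 libraries low in hippocampal markers and 0 without those 3 and 5xFAD-Dp16 tofacitinib library 1. Those that fell over the 34 included P2ry12, the ADP receptor of resting microglia, with a slope of -0.07 (SE 0.017, adjusted p = 0.0102), Csf1r with -0.07 (0.0221) and Cx3cr1 with -0.05 (0.0303). Tmem119 had -0.03 (0.222). Cst7, a cystatin that microglia switch on at plaques, was looked at after its values were seen and had -0.29 (SE 0.067, adjusted p = 0.00876). Without the 3 libraries low in hippocampal markers Cst7 was still called (-0.24, 0.0467), and P2ry12 (-0.05, 0.0555), Csf1r (-0.06, 0.119) and Cx3cr1 (-0.04, 0.139) were not.

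Cst7 in the 5xFAD sham libraries 1 to 4 was 24.1, 48.1, 40.3 and 4.47 CPM, and Ttr in the same libraries was 4324, 11.0, 15.2 and 4009 CPM. In 5xFAD tofacitinib libraries 1, 2, 4, 5 and 6 Cst7 was 22.8, 6.77, 38.3, 36.6 and 6.59 CPM, with Ttr at 3.02, 4412, 29.4, 26.7 and 3601 CPM. The lowest Cst7 of each group was thus in a library full of Ttr. In 5xFAD-Dp16 sham libraries 1, 2 and 4 it was 13.6, 14.7 and 2.25 CPM, lowest in library 4, which was full of Ttr and low in hippocampal markers. In the 4 5xFAD-Dp16 tofacitinib libraries Cst7 was 16.7, 19.0, 21.4 and 11.7 CPM and did not follow Ttr, which was 2335, 9.28, 853 and 11.8 CPM. Mice without the transgenes had 0 to 0.823 CPM.

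Fitted in the 16 transgene carriers alone, P2ry12 (edgeR adjusted p = 0.0174), Csf1r (0.0247) and Cx3cr1 (0.0374) fell, and Tmem119 (0.213) and Cst7 (-0.32, 0.0863) were not called. Itgax (-0.37, 0.0402), Trem2 (-0.18, 0.0188) and Cd68 (-0.15, 0.0221), microglial genes outside the list of 5, also fell in the carriers. In the 18 other animals alone 0 of the 5 listed genes were called, and the edgeR adjusted p of Itgax, Trem2 and Cd68 was 0.821 to 0.971. Over all animals without the 3 libraries low in hippocampal markers, Itgax was called (0.0455), and Trem2 (0.175) and Cd68 (0.119) were not. Over the carriers the mean log2 CPM of the 5 microglial genes had an r of -0.594 with log2 Ttr. Its rho was -0.538 and its permutation p 0.0148 (0.0296 adjusted over 4 relations). The r was -0.674 without the 2 farthest libraries and -0.727 for deviations from group means (permutation p = 0.00181, adjusted 0.00724). The carriers include 5xFAD tofacitinib library 2 and 5xFAD-Dp16 sham library 4, both low in hippocampal markers. No carrier result is given without both of them. Over all 34 libraries r was -0.422 (adjusted permutation p = 0.0439), and -0.379 (0.123) without the 3 libraries low in hippocampal markers. Over the 18 animals without the transgenes r was -0.146 (rho -0.108, permutation p = 0.565). The difference between carriers and others was tested gene by gene as a difference of slopes on the level. It was called for 0 of 17508 genes (0%, edgeR), 1219 of which had an unadjusted p under 0.05. For P2ry12 the slope was -0.10 in carriers and -0.02 in others, a difference of -0.09 (SE 0.031, edgeR adjusted p = 0.638), and for Cst7 the difference was -0.26 (SE 0.24, adjusted p = 0.835).

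**Figure D5:**
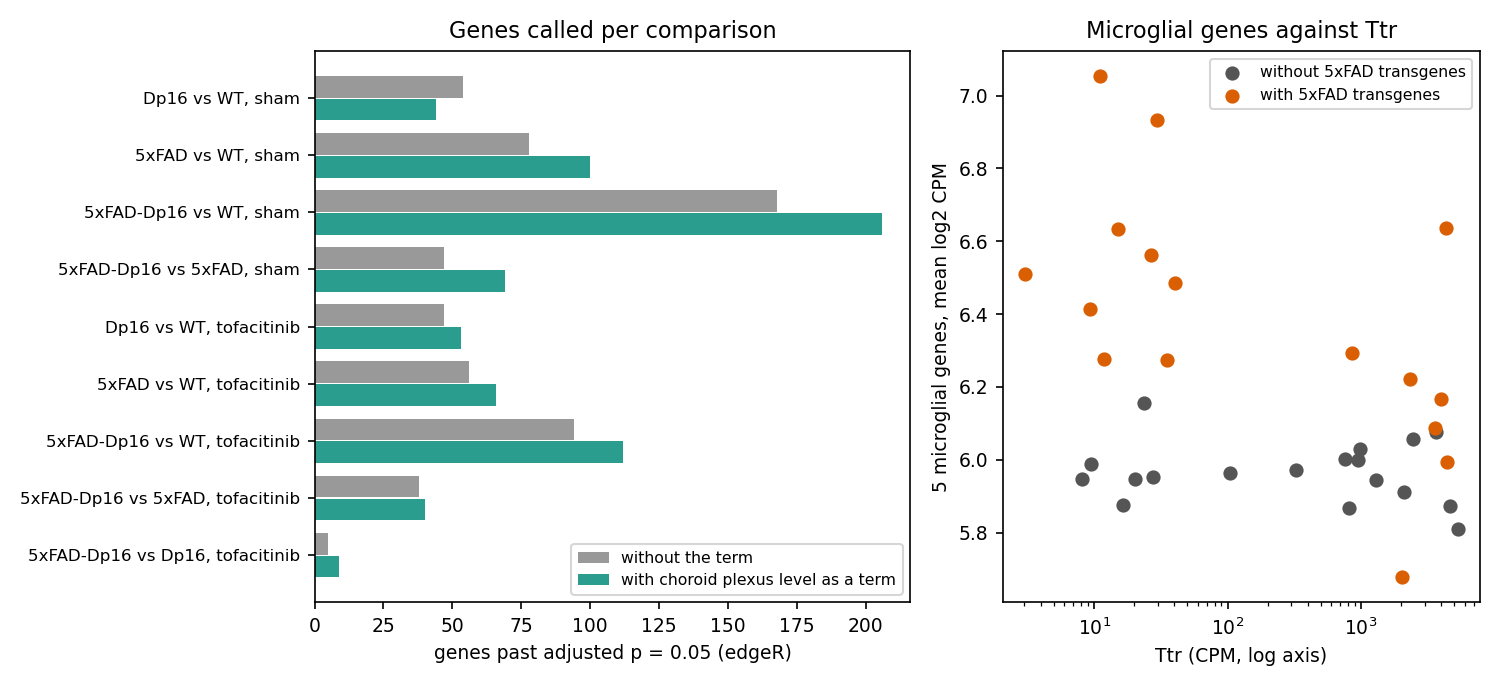
Left: genes called at an adjusted p under 0.05 (edgeR) per comparison, without (grey) and with (green) the choroid plexus level as a term, for example 54 and 44 in Dp16 against WT sham mice and 168 and 206 in 5xFAD-Dp16 against WT. Right: mean log2 CPM of 5 microglial genes against Ttr (CPM, log axis), 1 point per library. The r was -0.594 in the carriers (orange) and -0.146 in the others (grey). A difference of slopes on the level between them was called for 0 of 17508 genes (edgeR).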

How the data were processed

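Poly(A) RNA from hippocampus was sequenced as strand-specific paired reads, per the labels' protocols. The authors deposited a table of raw counts per gene and a table of RPKM per gene (reads per kilobase and per M reads), on GENCODE M24 gene models per the file headers and names. The submitters' processing notes list bcl2fastq, FastQC 0.11.5, HISAT2 2.1.0, SAMtools 1.5 and HTSeq 0.6.1 with GRCm38. No source used here gives the strand setting of the counting. The deposited RPKM equalled the counts divided by library total and gene length.

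Groups came from the labels. Counts were tested with edgeR 4.0.16 in R 4.3.3 (quasi-likelihood test, TMM scaling, filterByExpr, group means plus sex, all 34 libraries, Benjamini-Hochberg over 17518 genes, threshold 0.05), in 20 contrasts, with DESeq2 1.42.0 as an alternative. Each SE was derived from the F of its test, as the absolute log2 fold change or slope over the square root of F. Log2 CPM used a prior count of 2. Correlations used NumPy 2.4.6 and pandas 2.3.3 with 100000 permutations, two-sided. No 2 libraries of a group agreed within sampling noise. The code was checked on simulated counts. Named genes were the 10 genes, the 6 further choroid plexus genes highest in mean RPKM and the 12 genes most correlated with the level. Up to 4 genes lost per comparison, by size of fold change, were also named. Cst7, Itgax, Trem2, Cd68 and Tcf7l2 were named after their values were seen. The genes and lists were chosen with earlier results of these data known. Positions are from GENCODE M21 (GRCm38). Alternatives covered filter, scaling, tool, prior count, replicate block and each library left out. The values of 1 gene of the microglial list are not reported here.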

Additional observations from a re-analysis of the deposited data

How the results depend on the processing

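Without the filter on low counts, members called rose from 0 to 10 (Dp16 and 5xFAD against WT sham, and the sham interaction), 9 (5xFAD-Dp16 against 5xFAD, sham and tofacitinib), 7 and 6 (against Dp16, sham and tofacitinib), 3 (5xFAD-Dp16 against WT sham, 5xFAD against WT tofacitinib, and the mean tofacitinib response), 2 (Dp16 and 5xFAD-Dp16 against WT tofacitinib, and the response differences of Dp16 and 5xFAD) and 1 (tofacitinib in WT, 5xFAD and 5xFAD-Dp16, and the response difference of 5xFAD-Dp16). No other alternative called a member.

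Genes called in Dp16 against WT sham mice (54) numbered 237 without the filter, 119 without the 3 libraries low in hippocampal markers, and 98 both with these groups fitted alone and with DESeq2. In 5xFAD against WT sham mice (78) they numbered 245 without the filter, 22 with the replicate block and 14 with the groups alone. In 5xFAD-Dp16 against WT sham mice (168) they numbered 1270 without the filter, 109 with the block, 85 without the 3 libraries, 0 with the groups alone and 344 with DESeq2. The mean tofacitinib response (0) gave 91 without the filter and 6 with DESeq2. Leaving out each library gave 23 to 46, 12 to 105, 65 to 474 and 0 genes. The count moved over 1.5 times in the first without WT sham 1 (33) or Dp16 sham 1, 2 or 3 (24, 23, 31), in the second without WT sham 4 or 5 (40, 50) or 5xFAD sham 1 or 2 (46, 12), and in the third without WT sham 1, 4 or 5 (91, 97, 100) or 5xFAD-Dp16 sham 1, 2 or 4 (415, 474, 65).

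Leaving out each library gave member medians of 0.83 to 2.65 (Dp16 against WT sham), 0.64 to 2.98 (5xFAD against WT sham), -1.07 to 1.83, -2.26 to -0.28 and -1.61 to 0.44 (tofacitinib in WT, Dp16 and 5xFAD), -0.56 to 0.53 (its mean), -1.05 to 1.71, -0.32 to 2.07 and -1.35 to 0.95 (Dp16, 5xFAD and 5xFAD-Dp16 against WT, tofacitinib), -2.53 to 1.80 (5xFAD-Dp16 against WT sham), -4.11 to -0.46 (against 5xFAD sham), -1.22 to 2.49 (tofacitinib in 5xFAD-Dp16), -2.57 to 1.93 (its difference from WT) and -5.04 to -1.62 (interaction). Ttr ran from 0.55 to 2.70 (Dp16 against WT sham), 0.34 to 3.11 (5xFAD against WT sham), -4.96 to 1.77 (5xFAD-Dp16 against WT sham) and -0.45 to 1.07 (mean tofacitinib response), and Gata3 from -1.55 to 8.16. Without the 3 libraries the medians were -3.88 (5xFAD-Dp16 against 5xFAD sham), 2.38 (tofacitinib in 5xFAD-Dp16) and -5.05 (interaction), Gata3 was -1.61 (adjusted p = 0.905), Ttr under tofacitinib 0.82 (0.842), and Ttr against library total had r = 0.044 (adjusted permutation p = 0.907). Relations of Ttr that passed numbered 3, and 5 for deviations from group means. The relation with the microglial list did not pass without the 3 libraries (r = -0.379, adjusted permutation p = 0.123). Genes moving with the level (1073) numbered 687 without the 3 libraries, 549 also without 5xFAD-Dp16 tofacitinib 1, 764 with Ttr as the term, 357 in carriers and 241 in others. The causes were not tested. For the level term, the settings without these libraries, by carrier and with Ttr were chosen after seeing the data.

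Replicate numbers did not pair the samples: the mean r of deviations was -0.0013 for equal numbers and 0.0009 for others, and 6 of 34 libraries correlated best with their own number. The block changed no member's call.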
